A study of Mus musculus with 2 samples.

Results

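The loci of 8 regulators of T lineage identity (Bcl11b, Gata3, Satb1, Notch1, Myb, Ikzf1, Ikzf2 and Ikzf3) were examined for binding of Tcf1, the HMG-box transcription factor encoded by Tcf7, in naïve CD8+ T cells of the mouse spleen. A locus was taken as the gene body plus 50 kb on each side in the GENCODE vM1 annotation of the mm9 genome, and a peak belonged to it when its summit, the position of highest coverage, lay inside. These windows held 77 of the 22286 peaks deposited for the study. Binding was measured by ChIP-seq, in which crosslinked chromatin is precipitated with an antiserum, here one raised against the full-length Tcf1 protein, and the recovered DNA is sequenced.

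The peak list came from 1 WT library and 1 Tcf1-deficient library, the latter serving as the control for peak calling. Both were made from cells sorted as GFP+ TCRbeta+ CD62Lhi CD44lo-med CD8+. The sources differ on the mice: the study's methods give Cd4-Cre+ Tcf7 fl/fl mice for the control, its genotype label reads Tcf1-/-Lef1-/-, and the series' design names hCD2-Cre, the Rosa26-lsl-GFP reporter and floxed Tcf1/Lef1 alleles. Whether the control cells also lacked Lef1, the close relative of Tcf1, is therefore unsettled. Cd4-Cre is active from thymic development onwards and hCD2-Cre mostly in mature T cells, so the stage at which the control cells lost Tcf1 is unsettled too. The strains shared the C57BL/6 background, and young adult mice of both sexes served in the study, without a statement of which gave these libraries. A peak list holds no level of any marker with which to check the sorted cells.

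After removal of duplicates the WT library held 36938606 fragments and the control library 27625250, a ratio of 1.34. For every peak the list gives the pileup, a count of the WT fragments that cover the summit, and the fold enrichment, which is the pileup plus 1 over the local control level plus 1. The control level is brought to the depth of the WT library, so it is in WT-equivalent fragments and not a count, and it never fell below a floor of 5.42, at which a fold enrichment of 4 corresponded to a pileup of 25 (exact Poisson 95% interval 16.2 to 36.9). There was 1 library per group, so no difference below has a replicate check. The Poisson intervals of single peaks cover counting error of the pileup only and take the control level as exact. The intervals of shares and medians treat peaks as independent draws, although peaks share loci and are not replicates. From the pileup of sorted cells, a site occupied in more cells cannot be told apart from one occupied more of the time in each cell. The Tcf7 locus itself held 19 high-confidence peaks with a fold enrichment up to 142, but a list in which the Tcf1-deficient library is the background does not check the deletion.

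Several of these factors act at successive steps of T cell development. Notch1 is the receptor whose cleaved intracellular domain joins Rbpj and Mastermind proteins on DNA and starts the T cell programme in the thymus, where Tcf1 and Gata3 come on early. Bcl11b, a zinc finger factor, closes off other fates at commitment, and Myb supports progenitors and thymocytes. Satb1 organises chromatin loops in thymocytes, and the Ikaros family of zinc finger proteins, here Ikaros (Ikzf1), Helios (Ikzf2) and Aiolos (Ikzf3), shapes lymphoid gene expression. Tcf1 and Lef1 recognise a short core with the letters ATCAAAG or close variants of it.

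The sequences around the strongest peak of each locus are shown first, each being the peak with the largest fold enrichment in its own window. Each is the 101 bp centred on the summit, on the plus strand of mm9, written 5′ to 3′. Capitals mark any match, on either strand, to 6 searched cores or to 2 variants of the first. The cores are ATCAAAG for Tcf/Lef factors, CGGAAGT for ETS factors, TGTGGTT for Runx factors, AGATAA as bound by GATA factors, GTGGGAA for Rbpj and CAGCTG for E proteins. The variants, TTCAAAG and also AACAAAG, keep the last 5 letters of the Tcf/Lef core.
Ikzf1 intron 3, chr11:11626160-11626260: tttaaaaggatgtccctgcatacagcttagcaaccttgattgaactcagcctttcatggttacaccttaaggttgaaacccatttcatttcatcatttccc
Satb1 upstream, chr17:52018709-52018809: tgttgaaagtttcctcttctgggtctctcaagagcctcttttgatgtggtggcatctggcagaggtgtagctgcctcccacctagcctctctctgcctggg
Bcl11b intron 1, chr12:109231379-109231479: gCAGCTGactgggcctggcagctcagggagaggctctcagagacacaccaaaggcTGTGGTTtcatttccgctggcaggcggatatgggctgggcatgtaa
Ikzf3 intron 1, chr11:98388514-98388614: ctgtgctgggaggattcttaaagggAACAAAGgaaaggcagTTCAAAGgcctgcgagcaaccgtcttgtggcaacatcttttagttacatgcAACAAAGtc
Notch1 downstream, chr2:26300901-26301001: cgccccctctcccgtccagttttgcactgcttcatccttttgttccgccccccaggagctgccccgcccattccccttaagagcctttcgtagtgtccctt
Ikzf2 intron 3, chr1:69727741-69727841: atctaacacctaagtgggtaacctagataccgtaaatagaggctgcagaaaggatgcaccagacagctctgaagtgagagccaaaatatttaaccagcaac
Myb upstream, chr10:20906686-20906786: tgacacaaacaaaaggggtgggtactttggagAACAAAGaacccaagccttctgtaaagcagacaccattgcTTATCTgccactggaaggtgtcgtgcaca
Gata3 intron 2, chr2:9797741-9797841: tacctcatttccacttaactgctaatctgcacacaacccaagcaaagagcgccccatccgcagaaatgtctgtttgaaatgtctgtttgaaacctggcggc

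Only 4 high-confidence peaks held the exact Tcf/Lef core at a distance of at most 100 bp, and these are shown next, centred on the summit over 101 bp, or over 61 bp where the core was closest to it. Capitals mark the core in each (ATCAAAG, or CTTTGAT where it lies on the minus strand).
Notch1 intron 1, chr2:26353039-26353099: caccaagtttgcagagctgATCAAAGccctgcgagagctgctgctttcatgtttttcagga
Satb1 intron 1, chr17:51963548-51963608: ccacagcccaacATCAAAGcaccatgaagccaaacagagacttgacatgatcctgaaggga
Ikzf3 intron 3, chr11:98356573-98356673: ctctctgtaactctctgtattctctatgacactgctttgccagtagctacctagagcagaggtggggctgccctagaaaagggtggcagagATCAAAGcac
Gata3 intron 3, chr2:9793537-9793637: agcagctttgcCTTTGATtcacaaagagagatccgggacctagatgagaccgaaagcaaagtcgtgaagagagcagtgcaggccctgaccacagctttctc

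Tcf1 peaks were many at Bcl11b, Satb1, Ikzf1 and Ikzf3 and fewer at Gata3, Notch1, Myb and Ikzf2. A peak was called high-confidence, after the study's own criteria, at 4-fold enrichment or more with p below 1e-05 and q below 0.05. Of the 77 peaks, 69 (89.6%) met these criteria, beside 85.4% over the whole list. Satb1 and Ikzf1 held 15 high-confidence peaks each, and Bcl11b and Ikzf3 held 14 each. Gata3 had 4, Notch1 had 3, and Myb and Ikzf2 had 2 each. These counts move with the window and the minimum: with 100 kb on each side Myb had 8, with windows to the neighbouring genes Gata3 had 13 and Ikzf3 11, and at a minimum of 8-fold Bcl11b had 4, Ikzf1 3 and Notch1 2. Each of the 8 loci had at least 1, as did 66.5% of the 22208 protein-coding genes given windows of the same kind.

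Bcl11b, Satb1, Ikzf1 and Ikzf3 stood near the upper end of all genes in number of peaks. The median protein-coding gene had 1 high-confidence peak (interquartile range 0 to 3). Fewer peaks than at Satb1 and Ikzf1 were found at 99.7% of genes, and fewer than at Bcl11b and Ikzf3 at 99.6%. The figure was 76.4% for Gata3, 65.2% for Notch1 and 50.5% for Myb and Ikzf2. Genes with windows of similar length had a median of 2 peaks, for each of the 8 loci. Per 100 kb of window, Ikzf1 had 7.98 peaks, Ikzf3 7.73, Satb1 7.61 and Bcl11b 7.25, against a median of 0.972 over all genes. These 4 loci lay within 1 peak of each other. Gata3 had 3.01 per 100 kb, Notch1 1.89, Myb 1.47 and Ikzf2, in the longest window of 255 kb, 0.785, so that of the 8 only Ikzf2 was below the median density.

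**Figure D1:**
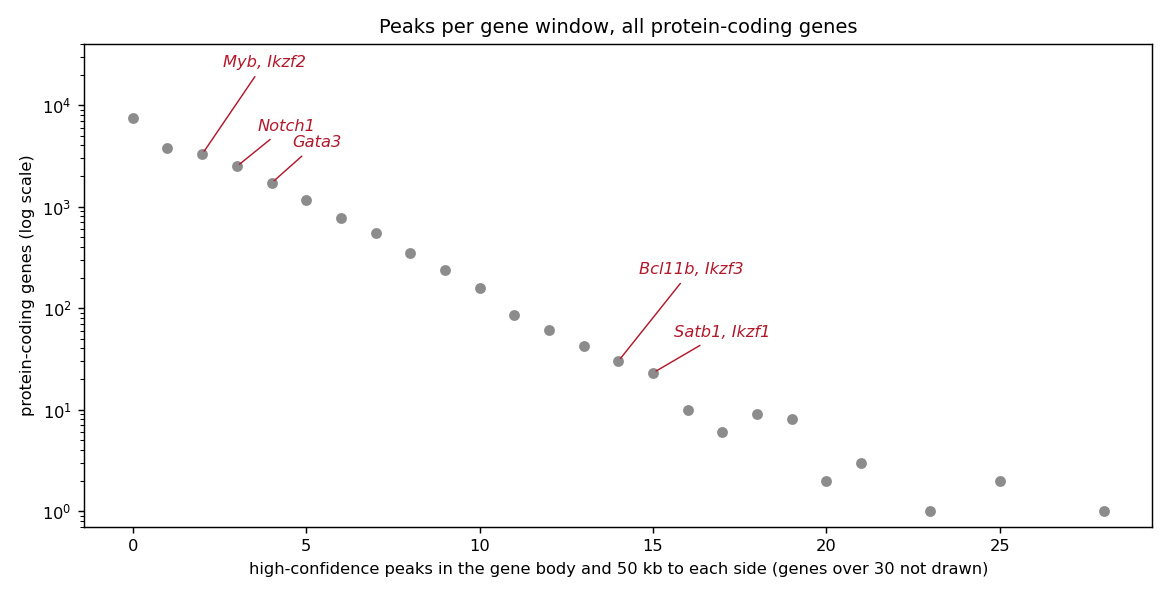
High-confidence Tcf1 peaks per gene window (gene body and 50 kb on each side, horizontal axis) against the number of protein-coding genes with that count (log vertical axis), with the 8 loci marked. Bcl11b, Ikzf3, Satb1 and Ikzf1 sit at 14 and 15 peaks, a count that at most 0.437% of genes reach, while Myb and Ikzf2 sit at 2, near the median of 1; 3 genes with more than 30 peaks are not drawn.

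The median fold enrichment was 8.10 at Satb1, 7.09 at Ikzf3, 6.54 at Bcl11b and 5.92 at Ikzf1, on both sides of the 6.86 of the whole list. Over all 69 peaks the median fold enrichment was 6.39 (95% interval of the median over peaks 5.92 to 7.95, interquartile range 5.30 to 9.04), against 6.86 (interquartile range 5.14 to 10.6) over the 19042 high-confidence peaks of the list. The median pileup was 41 fragments (range 25 to 378) against 44, the median width 486 bp against 484 bp, and the median GC content within 100 bp of the summit 51.2% against 51.7%. A fold enrichment of 20 or more was reached by 6 peaks (8.70%), beside 7.98% of the list. These 6 were at Bcl11b (2), Ikzf1 (2), Satb1 (1) and Ikzf3 (1). The control level was at the floor for 60 of the 69 (87.0%), beside 86.3% of the list, and never exceeded 9.36. For 11 peaks (15.9%) the pileup was within 1 Poisson standard deviation of the count that 4-fold enrichment requires, beside 20.4% of the list.

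**Figure D2:**
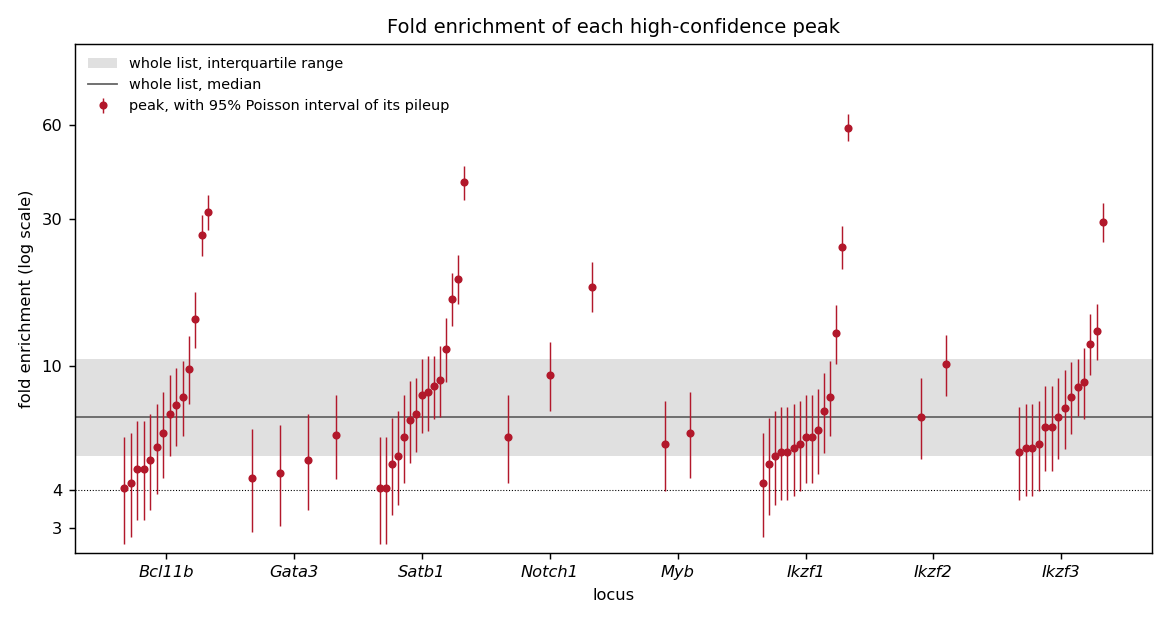
Fold enrichment (log axis) of each of the 69 high-confidence peaks by locus, ordered within the locus; bars are exact Poisson 95% intervals of the pileup, the grey band and line the interquartile range and median of all 19042 high-confidence peaks, and the dotted line the minimum of 4. The grey band spans 5.14 to 10.6; of the Gata3 peaks only the one at 5.99 lies in it and the others lie below, while peaks far above it are seen at Ikzf1 (59.1), Satb1 (39.3), Bcl11b (31.5) and Ikzf3 (29.3).

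Most peaks were inside the genes, though unevenly. Inside were 13 of 14 at Bcl11b, 4 of 4 at Gata3, 10 of 15 at Ikzf1 and 2 of 3 at Notch1. At Satb1 8 of 15 were inside, at Ikzf3 8 of 14, and at Myb and Ikzf2 1 of 2 each. A share inside genes over the whole list was not computed. By position, 44 of the 69 summits lay in an intron of the longest coding transcript of the locus gene, 3 elsewhere in the gene body, 14 upstream and 8 downstream. Promoters, defined as 1 kb on each side of any annotated start site, held 16 (23.2%, Wilson 95% interval 14.8% to 34.4%), below the 39.6% of the whole list. Of these 16, 11 were at promoters of the locus gene itself. The 16 promoter peaks had a median fold enrichment of 6.19 and the 53 distal peaks one of 6.86. For 58 of the 69 the nearest start site of a protein-coding gene was that of the locus gene, and the other 11 were nearer to a neighbour.

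**Figure D3:**
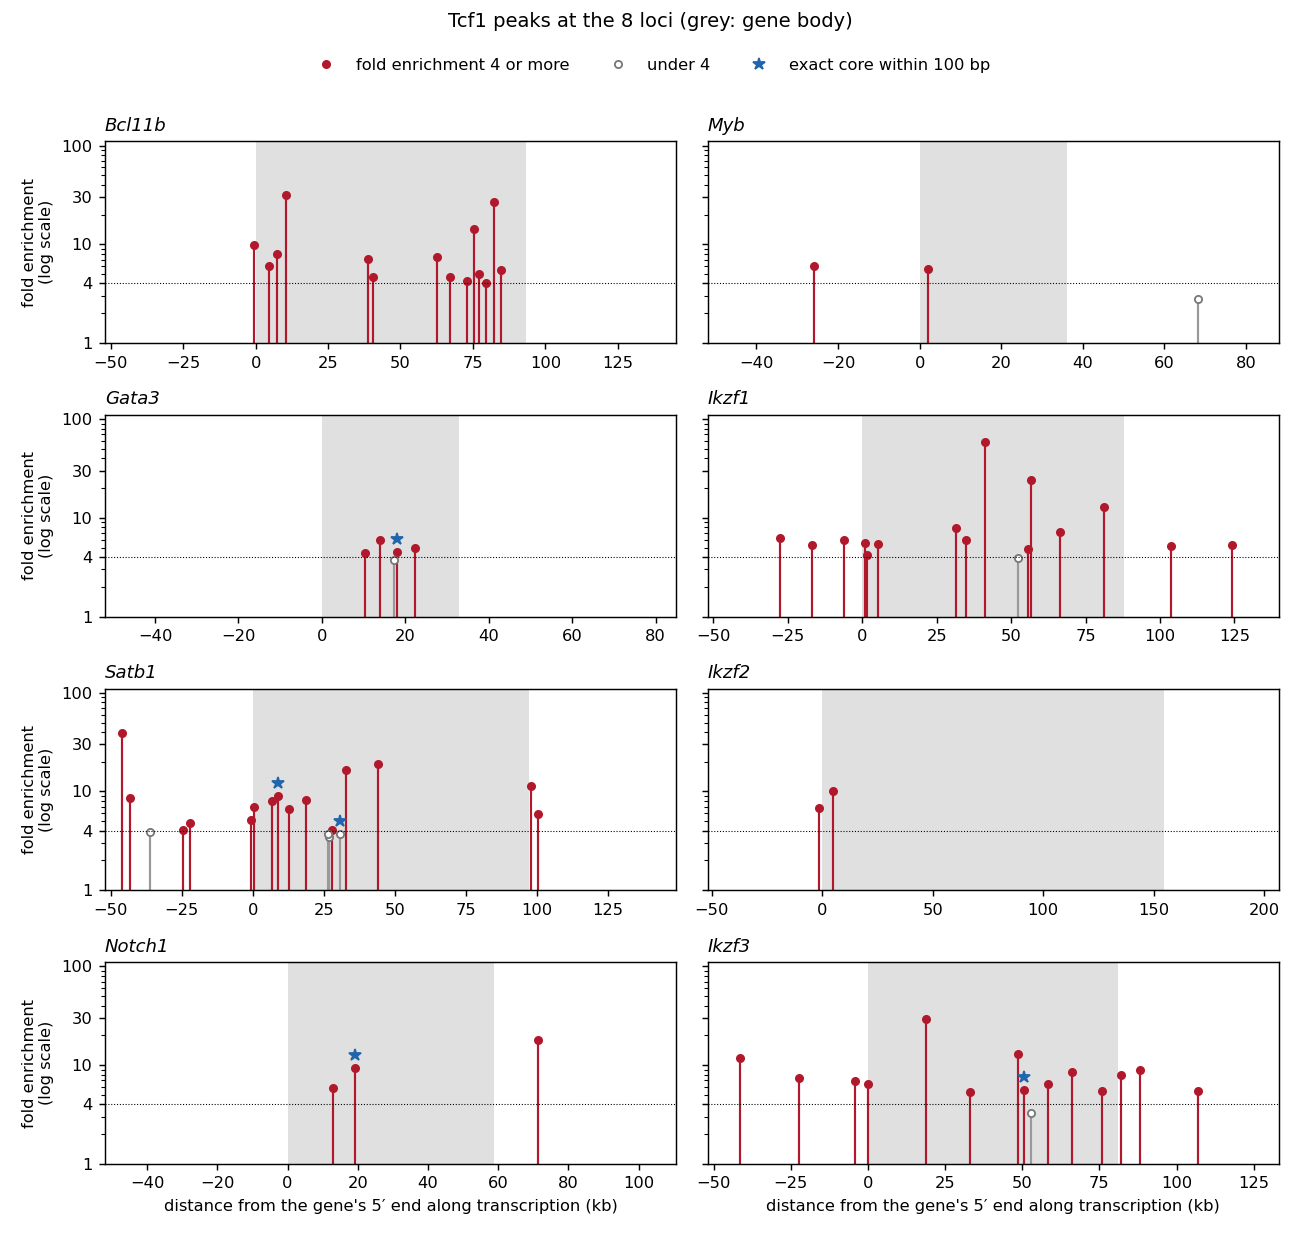
Tcf1 peaks along each locus, by distance in kb from the annotated 5′ end in the direction of transcription (horizontal axis) and fold enrichment (log vertical axis). Grey marks the gene body, filled circles the 69 high-confidence peaks, open circles the 8 peaks under 4-fold and stars the peaks with an exact Tcf/Lef core near the summit; the Bcl11b peaks fall inside the gene except for 1 at its 5′ end, and both Ikzf2 peaks lie at the 5′ end of a gene of 155 kb.

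Notch1, the receptor (chr2:26313423-26372183, minus strand, ENSMUSG00000026923.8), had 3 peaks. The strongest, chr2:26300568-26301638, had a pileup of 115 fragments (94.9 to 138) and a fold enrichment of 18.1 (14.9 to 21.7). It lay 12.5 kb beyond the 3′ end of Notch1 and 215 bp from the start site of Sec16a, a gene of vesicle transport, and is therefore a promoter peak of that neighbour. Within Notch1, the peak chr2:26352859-26353993 in intron 1 had a pileup of 59, a fold enrichment of 9.35 (7.15 to 12.0), the exact core 8 bp from the summit and an Rbpj core 97 bp from it. The promoter peak chr2:26358996-26359848, in an annotated exon 14 bp from a Notch1 start site and with a GC content of 78.6%, had a pileup of 37 and a fold enrichment of 5.92 (4.21 to 8.10). The Poisson intervals of the 2 Notch1 peaks overlapped, while that of the Sec16a peak lay above both.

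The genes that make, carry or read the Notch signal were examined beside their receptor. Of 19 pathway loci, 18 had at least 1 high-confidence peak, with a median of 3 per locus and 70 peaks in all, beside 66.5% and a median of 1 over all protein-coding genes. The median density was 1.76 per 100 kb and the median fold enrichment 6.78. The most peaks were at Lfng, the glycosyltransferase that tunes ligand choice, with 13 in a window of 108 kb and a fold enrichment up to 19.99, though only 7 of them were nearest to its own start site. Maml3, a Mastermind co-activator with a much longer window of 517 kb, had 9, of which 8 were nearest to it and the strongest reached 43.6. Maml1, another co-activator, and Jag2, a ligand, had 6 each, of which 2 were nearest to Maml1 and 0 to Jag2. Rbpj, the DNA-binding partner of Notch, had 3, as many as Notch1. Jag1, another ligand, had 0. Of the 70 peaks, 86.4% of the 81 deposited there beside 85.4% for the list, 33 (47.1%, beside 39.6%) were at promoters and 30 nearest to the start site of the pathway gene, the others being nearer to another gene.

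Gata3, the GATA factor of T cells (chr2:9778705-9811661, minus strand, ENSMUSG00000015619.9), had 4 peaks, all within introns and 12.0 kb of each other, and all weak. The strongest, chr2:9797429-9798283 in intron 2, had a pileup of 41 (29.4 to 55.6) and a fold enrichment of 5.99 (4.34 to 8.07). Its summit was 765 bp from the start of a noncoding Gata3 transcript, the reason for counting it as a promoter peak. The others were chr2:9789063-9789462 in intron 4 at 4.99-fold, chr2:9793368-9793665 in intron 3 at 4.52-fold and chr2:9801233-9801477 in intron 1, 1101 bp upstream of a coding start site, at 4.36-fold. The intron 3 peak (pileup 28, interval 18.6 to 40.5) held the exact core 36 bp from its summit. The Poisson intervals of all 4 overlapped, and the lower ends of 3 of them fell under 4-fold. A minimum of 5-fold left 1 of the 4, and a window to the neighbouring protein-coding genes, 2834 kb long, gave 13.

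Bcl11b (chr12:109148613-109241812, minus strand, ENSMUSG00000048251.9), the factor of T lineage commitment, had 14 peaks and no deposited peak under the minimum. Only 1 lay outside the gene, at the promoter 547 bp upstream of the start site (chr12:109241622-109242574, pileup 62, interval 47.5 to 79.5, 9.82-fold). Of the rest, 3 were in intron 1 and 10 in intron 3. All 14 had another high-confidence summit within 10 kb, with a median gap of 2.94 kb, at a density of 7.25 peaks per 100 kb. The share with such a neighbour over the whole list was not computed. No other gene's coding start site was nearer to any of them.

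The strongest Bcl11b peak, chr12:109230977-109231940 in intron 1, 10.4 kb from the 5′ end, had a pileup of 241 (212 to 273), a control level of 6.69 and was 31.5-fold enriched (27.7 to 35.7), more than 97.3% of the list. Its printed sequence holds a Runx core 8 bp from the summit and an E protein core at its left end. Near the other end of the gene, chr12:109159154-109159946 in intron 3 had a pileup of 169 (144 to 196) and a fold enrichment of 26.5 (22.7 to 30.8), with the variant AACAAAG 8 bp from the summit. The intervals of their fold enrichments overlapped, those of their pileups did not. The control level, taken as exact, was 6.69 for the first and at the floor for the second. The third, chr12:109166072-109166719, also in intron 3, reached 14.2-fold and held an ETS and an E protein core. The 11 weaker ones ran from 4.05 to 9.82. The exact Tcf/Lef core was near none of the 14 summits, and a variant was near 4.

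Myb, a factor of progenitors and thymocytes (chr10:20844736-20880790, minus strand, ENSMUSG00000019982.7), had 2 peaks, 27.9 kb apart. The one in intron 1, chr10:20878038-20879019, had a pileup of 35 (24.4 to 48.7) and a fold enrichment of 5.61 (3.95 to 7.74), and its summit was 1933 bp inside the gene, outside the 1 kb that defines a promoter. The other, chr10:20906558-20906869, 25.9 kb upstream, had a pileup of 38 (26.9 to 52.2) and a fold enrichment of 6.08 (4.35 to 8.28), with the variant AACAAAG 15 bp and a GATA core 24 bp from the summit. Their Poisson intervals overlapped. Beyond the window more peaks followed, so that 100 kb on each side gave 8.

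Satb1, the chromatin organiser (chr17:51875512-51972615, minus strand, ENSMUSG00000023927.7), had 15 peaks among 19 deposited, and 4 under the minimum. The strongest was the farthest upstream. At chr17:52018340-52020093, 46.1 kb before the 5′ end, it was 1754 bp wide, the widest of the 69, with a pileup of 251 (221 to 284) and a fold enrichment of 39.3 (34.6 to 44.4), above 98.6% of the list. A GATA core lay 60 bp from its summit, outside the printed stretch. Next came 2 peaks of intron 5, chr17:51928366-51929005 at 19.2-fold with an Rbpj core and chr17:51939414-51940036 at 16.5-fold with a Runx core and the variant AACAAAG, whose Poisson intervals overlapped each other but not that of the upstream peak.

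Several start sites are annotated for Satb1, and 4 peaks lay within 1 kb of one. They were chr17:51959637-51960064 at 6.70-fold (pileup 42), chr17:51965637-51966145 at 8.10-fold (pileup 51), whose summit was 1 bp from a start site, chr17:51971686-51972691 at 7.03-fold (pileup 53) near the 5′ end and chr17:51972915-51973374 at 5.14-fold (pileup 32). Their Poisson intervals overlapped. The intron 1 peak with the exact core, between the first 2 of these, was chr17:51963320-51963805, with a pileup of 57 (43.2 to 73.9) and a fold enrichment of 9.04 (6.88 to 11.7). The core was 15 bp from its summit and a Runx core 77 bp from it. Of the 15 peaks 14 had another within 10 kb, at a density of 7.61 peaks per 100 kb.

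Ikzf1, encoding Ikaros (chr11:11585006-11672929, plus strand, ENSMUSG00000018654.10), held the strongest peak of all 8 loci. In intron 3, chr11:11625722-11626780 had a pileup of 378 (341 to 418) and a fold enrichment of 59.1 (53.3 to 65.3), rank 55 of the list and above 99.7% of it. Neither any of the 6 cores nor a variant of the Tcf/Lef core lay within 100 bp of its summit. A second peak of intron 3, chr11:11641375-11642093, reached 24.3-fold (20.7 to 28.4) with a pileup of 155 and a GATA core 36 bp from its summit. The third, chr11:11666048-11666633 in intron 7, reached 12.8-fold with 2 Runx cores. The intervals of these 3 did not overlap, and the 12 others ran from 4.21 to 7.95.

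Weak promoter peaks accompanied these intronic ones. Those within 1 kb of an Ikzf1 start site were chr11:11585856-11586305 at 5.61-fold (pileup 35), chr11:11586571-11586820 at 4.21-fold (pileup 26) and chr11:11589998-11590830 at 5.45-fold (pileup 34), all with overlapping intervals. In 4 cases the start site of Fignl1 was nearer than that of Ikzf1. The one farthest from Ikzf1, chr11:11708775-11709197 at 5.30-fold, was 97 bp from it. The exact Tcf/Lef core was near none of the 15 summits and a variant near 4.

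Ikzf2, encoding Helios (chr1:69577788-69732534, minus strand, ENSMUSG00000025997.7), had 2 peaks, the fewest per length of the 8. The one in intron 3, chr1:69727531-69728003, 4.74 kb from the 5′ end, had a pileup of 77 (60.8 to 96.2), a control level of 6.69 and was 10.1-fold enriched (8.04 to 12.7). The other, chr1:69733631-69734432, was 1343 bp upstream with a pileup of 43 (31.1 to 57.9) and a fold enrichment of 6.86 (5.004 to 9.18). The fold intervals overlapped and those of the pileups did not, with the control level of the upstream peak at the floor. An E protein core lay 46 bp from the upstream summit, and neither peak held the Tcf/Lef core or a variant.

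Ikzf3, encoding Aiolos (chr11:98326216-98407345, minus strand, ENSMUSG00000018168.8), had 14 peaks in a gene-rich stretch. The strongest, chr11:98388219-98388932 in intron 1, had a pileup of 187 (161 to 216) and a fold enrichment of 29.3 (25.3 to 33.8). Its printed sequence carries TTCAAAG once, 6 bp from the summit, flanked by a copy of AACAAAG on each side, the most variant matches of any peak here. The next, chr11:98358603-98359073 in intron 3, reached 13.0-fold with AACAAAG 9 bp from its summit. The exact core, 44 bp from the summit, was in the weaker intron 3 peak chr11:98356305-98356709 at 5.61-fold (3.95 to 7.74, pileup 35). At the Ikzf3 promoter, chr11:98407022-98407438 had a pileup of 40 and a fold enrichment of 6.39 (4.61 to 8.64).

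A good part of the Ikzf3 count lay nearer to the start sites of neighbouring genes. For 6 of the 14 peaks another gene's coding start site was nearer, and 3 of these were promoter peaks. The strongest of them, chr11:98448445-98448935 at 11.8-fold (pileup 75), was 13 bp from the start of Ormdl3, a regulator of sphingolipid synthesis. Those of Zpbp2 (819 bp from its start) and 1810046J19Rik (56 bp) were at 6.86-fold and 5.45-fold. With peaks limited to those nearest to the locus gene, 8 remained at Ikzf3 and 11 at Ikzf1, while the 14 of Bcl11b and the 15 of Satb1 were all kept.

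The relatives of these genes had a median of 1 peak, as did protein-coding genes in general. Over 13 paralogues, which are relatives of 7 of the 8 genes and leave Satb1 without one, 16 high-confidence peaks (72.7% of 22 deposited, beside 85.4% of the list) were found at 8 loci, beside 66.5% of all genes, and Gata1, Gata2, Gata6, Notch3 and Mybl2 had 0. The highest counts were 4 at Notch4 and 3 at Notch2, and the median density was 0.579 per 100 kb, against 5.13 for the 8 loci and 0.972 for all genes. Of the 16 peaks 5 were nearest to the start site of the paralogue itself. Bcl11b had 14 peaks and Bcl11a 1, in windows of 193 kb and 196 kb. In the Ikaros family Ikzf4 and Ikzf5 had 2 each, the same count as Ikzf2. Nearest to the gene's own start site were 1 at Ikzf4, 0 at Ikzf5 and 2 at Ikzf2. Gata3 had 4 and the other GATA genes 0 or 1. Within 50 kb, Notch1 and Myb had 3 and 2 peaks beside 3 at Notch2, 4 at Notch4 and 2 at Mybl1. Of these, 2 each at Notch1, Myb and Notch2 and 1 each at Notch4 and Mybl1 were nearest to the gene's own start site. With windows of 100 kb, Notch1 had 6 and Myb 8, and the 13 paralogues together 36.

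**Figure D4:**
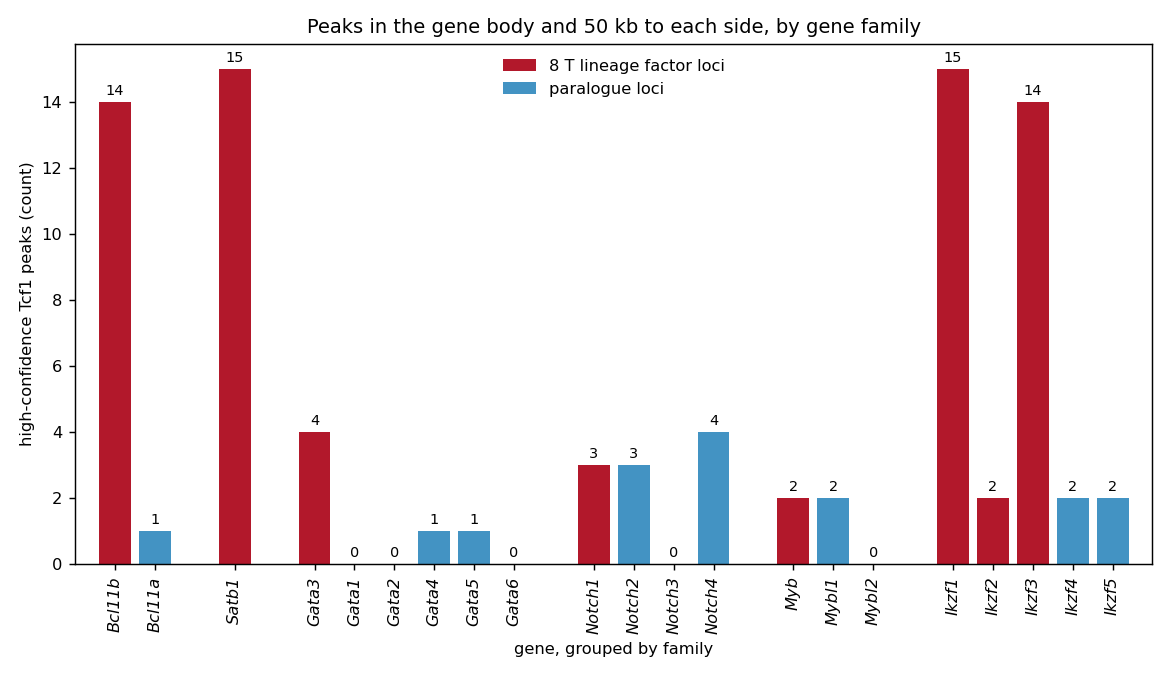
High-confidence Tcf1 peaks in the gene body and 50 kb on each side (bar height, with the count above each bar) for the 8 loci in red and 13 paralogues in blue, grouped by family. Bcl11b, Satb1, Ikzf1 and Ikzf3 hold 14 or 15 peaks and no paralogue holds more than 4, while Notch1, Myb and Ikzf2 hold 2 or 3; with 100 kb on each side they hold 6, 8 and 4.

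How often the exact Tcf/Lef core was found depended on how far from the summit it was sought. At most 100 bp away, it lay at 4 of 69 summits (5.80%, Wilson 95% interval 2.28% to 13.98%), beside 10.2% of the whole list, a value within the interval. The share was 11.6% within 200 bp and 15.9% anywhere in the peak. In windows of the same size 2 kb to each side of the 69 peaks it was found in 2.17% of 138. The same letters in reversed order, a control, were in 3 of the 69 peaks (4.35%), beside 2.40% of the list, so that the core at 4 was barely more frequent than its control. All 4 peaks with the core were distal and intronic, 1 each at Notch1, Satb1, Gata3 and Ikzf3, with fold enrichments from 4.52 to 9.35. Over the whole list the core was found at 13.5% of distal and 5.13% of promoter peaks, and at 20.6% of the 1519 peaks that were enriched at least 20-fold. Of the 6 such peaks at the 8 loci 0 held it that close to the summit, while the 39.3-fold Satb1 peak held it farther out.

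Counting the 2 variants as well, 21 of the 69 peaks (30.4%, 20.8% to 42.1%) had a match, beside 25.4% of the list and 11.6% of the flanking windows. The share of these peaks was above that of their own flanks, and their interval included the share in the list. Neither difference was tested, because peaks at one locus are not independent draws. Distal peaks gave 20 of the 21 matches, and 2 of the 6 strongest peaks had one, those of Bcl11b intron 3 and Ikzf3 intron 1. The matches were spread over Satb1 (6), Bcl11b, Ikzf1 and Ikzf3 (4 each) and Gata3, Notch1 and Myb (1 each).

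The shares with the cores of other factors lay below or near those of the list. The Runx core was in 7 peaks (10.1%, 5.002% to 19.5%) beside 15.5% of the list and 4.35% of the flanks, and 6 of the 7 were at Satb1, Ikzf1 and Ikzf3. The E protein core, whose letters read the same on both strands, was in 8 (11.6%) beside 12.2% of the list and 13.0% of the flanks. GATA and Rbpj cores were in 3 each (4.35%), beside 7.42% and 4.17% of the list and 7.25% and 4.35% of the flanks. The ETS core was in 2 (2.90%), both at Bcl11b, beside 6.93% of the list and 0% of the flanks. All Runx and ETS matches here were in distal peaks. Over the list the ETS core was at 2.75% of distal and 13.3% of promoter peaks, and the Runx core at 21.7% and 6.10%. More than 1 kind of core was found in 4 peaks, and 46 held none of the 6. No match within these windows says only that the searched letters are not there.

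**Figure D5:**
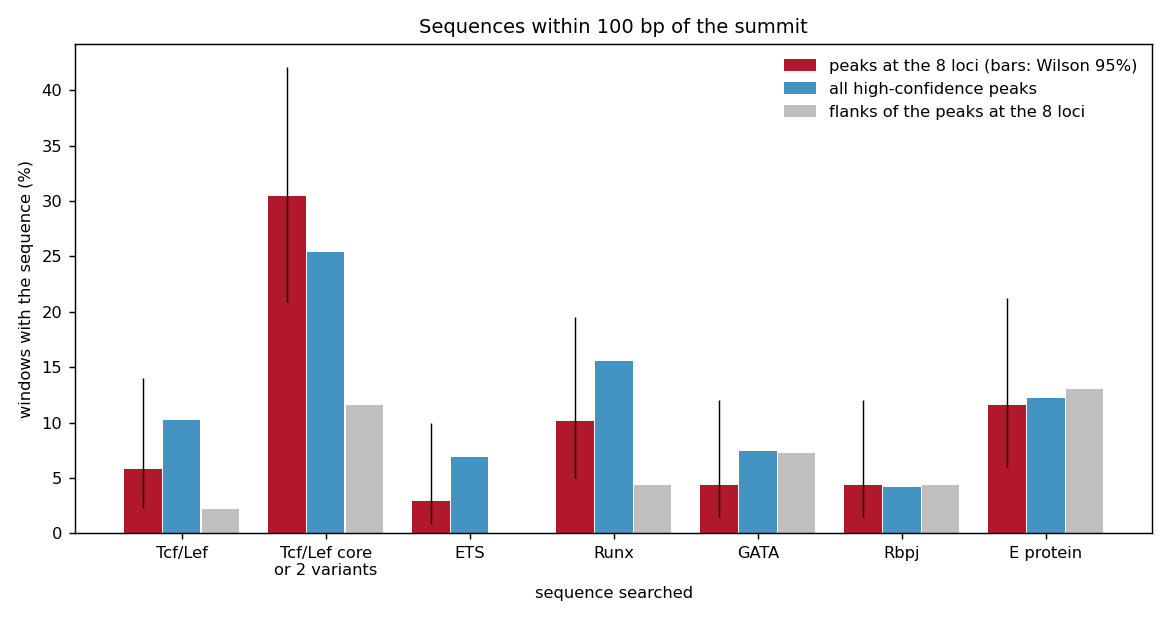
Share of windows (percent, vertical axis) with each searched sequence within 100 bp of the summit, for the 69 high-confidence peaks of the 8 loci (red, bars are Wilson 95% intervals), all 19042 high-confidence peaks (blue) and 138 flanking windows of the 69 peaks (grey). The Tcf/Lef core with its 2 variants reaches 30.4% at the 8 loci against 11.6% in their flanks, while the GATA, Rbpj and E protein shares were not above those of the flanks.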

How the data were processed

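Reads were aligned by the authors to mm9 with Bowtie2 2.2.5, and peaks were called with MACS2 2.1.1.20160309, the WT library being set against the Tcf1-deficient one. The deposited pileup is a signal in whole fragments, read here as unscaled because every value is a whole number, although the header speaks of scaling the larger dataset; the Poisson intervals rest on that reading. Fold enrichment, as deposited, is a ratio computed with a pseudocount of 1. The deposited −log10 p and −log10 q come from a Poisson model of these 2 libraries, not of replicates; q holds values although the header calls it not calculated. Control levels were computed back as (pileup + 1)/fold − 1.

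Positions and sequence came from NCBIM37 (mm9) and GENCODE vM1, and tables of another build were not used for coordinates. Windows, promoters, motifs and 95% intervals are as described above, computed in Python 3.11.15 with pandas 2.3.3 and scipy 1.17.1, and the sequence search was tested on simulated data. Introns were numbered on the longest coding transcript. The 8 loci, the paralogue and Notch pathway lists and the motifs were chosen with earlier results of these data known, and 2 genes of the lists are not reported here. At each locus the peak with the largest fold enrichment, those with the exact core and the promoter peaks of its gene are described in full, and of the lists the genes with most peaks. Alternatives changed the fold minimum, the window, the assignment to genes, the motif search and the promoter size.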

Additional observations from a re-analysis of the deposited data

Results flagged for a closer look

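The deposited list held 8 peaks at these loci that passed the caller's p limit but not the minimum of 4-fold enrichment and were left out of the values of the high-confidence peaks. Their fold enrichments ran from 2.75 to 3.90, their pileups from 21 to 33 fragments and their −log10 q from 3.13 to 6.80. By locus 4 were at Satb1 and 1 each at Gata3, Myb, Ikzf1 and Ikzf3. Of the 8, 7 lay within 10 kb of a high-confidence summit, a share that was not computed for the whole list. The exact Tcf/Lef core was within 100 bp of 1 of them, the Satb1 peak chr17:51941671-51941968, with a pileup of 25 and a fold enrichment of 3.71. The peaks on either side of the minimum differed little: the weakest high-confidence peaks, at Bcl11b and Satb1, had a pileup of 25 and a fold enrichment of 4.05, and the strongest one left out, at Ikzf1, a pileup of 24 and 3.90.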

How the results depend on the processing

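No paired analysis was possible because each group was 1 library; a peak's precision is limited by its pileup. Of 93 recomputed values for 14 results, 63 stayed within the spread allowed (1.5 times for counts) and 30 moved further. With a minimum of 8-fold, the 8 loci kept 23 of 69 peaks with a median fold enrichment of 12.8, the paralogue loci 11 of 16 and the Notch pathway loci 25 of 70. At single loci the same minimum left 8 peaks at Satb1, 5 at Ikzf3, 4 at Bcl11b, 3 at Ikzf1, 2 at Notch1, 1 at Ikzf2 and 0 at Gata3 and Myb. A minimum of 5-fold left 9 at Bcl11b and 1 at Gata3. With windows of 10 kb the paralogues had 8 and the Notch pathway 31, and with 100 kb 36 and 114. Counting only peaks nearest to the start site of the locus gene gave 5 and 30. Windows reaching to the neighbouring protein-coding genes, an alternative chosen after seeing the data, gave 112 peaks for the 8 loci. The share with the exact core was 15.9% when searched anywhere in the peak and 30.4% with the 2 variants. Bcl11b, Satb1, Ikzf1 and Ikzf3 had 11 to 14 peaks with 10 kb and 15 to 19 with 100 kb, the other 4 loci 1 to 4 and 4 to 8. With windows to the neighbouring genes the counts were 34 at Satb1, 21 at Bcl11b, 13 at Ikzf1 in 160 kb, 13 at Gata3 in 2834 kb, 11 at Ikzf3, 9 at Myb, 8 at Ikzf2 and 3 at Notch1.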

Other observations

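Peaks beyond the 50 kb windows were looked at after the values were seen, up to the neighbouring protein-coding genes on each side. At Myb, 7 high-confidence peaks lay upstream of the window, from 63.3 to 135 kb before the 5′ end, against 2 within it. The strongest, chr10:20954848-20955956, 74.4 kb upstream, had a pileup of 349 fragments over a control level at the floor and a fold enrichment of 54.5, which was higher than that of any peak inside the 8 windows except the one in Ikzf1 intron 3. The 101 bp around its summit are given on the plus strand of mm9, 5′ to 3′, with an E protein core (CAGCTG) and the variant TTCAAAG of the Tcf/Lef core in capitals.
Myb 74.4 kb upstream, chr10:20955125-20955225: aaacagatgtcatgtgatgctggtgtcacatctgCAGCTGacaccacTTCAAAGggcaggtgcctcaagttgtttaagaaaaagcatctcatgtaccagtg
The exact core was within 100 bp of 2 of the other 6, at 9.35-fold and 13.7-fold. The farthest of the 7 overlapped the edge of Hbs1l, the next protein-coding gene. Its summit lay within 1 kb of that edge, and it is counted at Myb by position only. Which gene any of these sites acts on was not measured here. The study's chromatin contact data showed the Myb promoter interacting with upstream regions over more than 100 kb. The study also linked Myb to sites more than 50 kb upstream that were less accessible without Tcf1 and Lef1.

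Gata3 had 9 further peaks downstream, between 55.3 kb and 2587 kb beyond its 3′ end, with a median fold enrichment of 12.6 and a maximum of 26.2 at 337 kb, all above the 5.99 of its strongest peak within the window. Satb1 had 13 further upstream, the strongest at 36.0-fold and 635 kb away, and 6 downstream with a maximum of 24.5. Ikzf2 had 3 upstream with a maximum of 23.4 at 83.1 kb and 3 downstream with a maximum of 4.36. Bcl11b had 7 downstream, with a maximum of 10.8. Distances of this size were read from 1 annotation, and nothing in a peak list links a site to a gene.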
